A study of Mus musculus with 6 samples.

Results

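Interferon-stimulated genes were followed across the epidermis of newborn mice in which the aryl hydrocarbon receptor (AhR) is constitutively active, and of their wild-type littermates. The set holds 39 named genes, named as known targets of interferon signalling, and a probe belonged to the set when its RefSeq identifier mapped to one of these symbols. Of the 39 genes, 36 had at least 1 probe (54 probes in all) among 18217 genes with a probe, and 30 were among the 12824 genes bright enough to test. Mx1, Mx2 and Dtx3l were matched by no probe. Oas3, Oasl1, Ifit1, Ifit2, Samd9l and Ifi44 had probes that were too dim to test.

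The AhRCA mice carried a constitutively active AhR driven by the keratin 14 promoter, which is active in basal keratinocytes, and the WT mice were littermates without it. All were at postnatal day 0 and of a mixed strain background, and epidermal RNA of 3 AhRCA and 3 WT mice was hybridised to 6 one-colour Agilent arrays. Each litter gave 1 AhRCA and 1 WT mouse, so that replicate numbers name litters 1 to 3. Litters 1 and 2 were on slide 1 and litter 3 was on slide 2. Litter 3 also stood apart in sex-linked transcripts, with Xist between -7.14 and -4.20 there and between 4.43 and 4.66 on slide 1. Y-linked transcripts lay between -3.29 and 2.61 in litter 3 and between -7.32 and -6.34 on slide 1. Litter, slide and this difference in sex-linked transcripts cannot be told apart. Values are log2 spot intensity relative to the 75th percentile of the same array, so that 0 is a fairly bright spot, while the lowest signal well above background lay between -5.24 and -4.77 on the 6 arrays. Since a probe's signal depends on its own sequence, levels were compared between arrays and never between genes.

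Direct AhR targets were read first as a check of the genotype labels. Cyp1a1 was 7.07 ± 0.58 log2 units higher in AhRCA epidermis, Cyp1b1 5.34 ± 0.14 and Ahrr 5.91 ± 0.35 (SE, n = 3 each), all with adjusted p of 0.00470 or less in limma. The 6 keratinocyte markers, among them Krt5, Krt14 and Krt10, were all tested and none was called. None of 5 endothelial markers was bright enough to test, but 5 of 6 fibroblast markers were, with 0 called. The share of RNA from outside the epidermis was not tested. Across all genes 279 of 12824 (2.18%) passed an adjusted p of 0.05, 68 of them (0.53%) higher and 211 (1.65%) lower in AhRCA epidermis. Depth has no counterpart on arrays, and their number limits the precision.

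Type I interferons bind the receptor IFNAR1 and IFNAR2, whose kinases JAK1 and TYK2 phosphorylate STAT2. STAT2 and IRF9 are parts of the complex ISGF3, which binds the interferon-stimulated response element (ISRE) in promoters and switches on antiviral genes, among them further sensors and IRF7, so that the response feeds itself. Even without infection most tissues keep a low tonic level of these transcripts, and in skin keratinocytes, dendritic cells and other immune cells all contribute to it.

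The ISRE was looked for because it is the sequence through which the set is known to respond. RefSeq promoters (GRCm38.p6, 250 bases before the start site and a short stretch after it) were matched for 30 of the 39 genes, and 12 of the 30 (40.0%) held the letters GAAA, any 2 bases and GAAA again on either strand, against 3.99% of 27025 genes with a promoter. A looser form that ends in GAA was found in 16 of the 30 (53.3%), against 9.76% of all genes. Stretches upstream of the start site are shown for 3 genes with larger negative differences between AhRCA and WT epidermis, Isg15, Rsad2 and Gbp2, whose log2 fold changes were -0.73, -1.29 and -0.78. Those of 4 genes with small differences are set beside them, Ifit3 at -0.18, Stat2 at -0.13, Bst2 at -0.14 and Oas1a at -0.18. They are written along each gene's own strand and capitals mark the ISRE matches, which overlap in Isg15, Bst2 and Oas1a.
Isg15: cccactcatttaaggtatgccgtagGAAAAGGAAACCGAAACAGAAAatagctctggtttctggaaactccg
Rsad2: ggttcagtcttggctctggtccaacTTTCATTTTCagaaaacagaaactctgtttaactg
Gbp2: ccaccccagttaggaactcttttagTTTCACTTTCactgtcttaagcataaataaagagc
Ifit3: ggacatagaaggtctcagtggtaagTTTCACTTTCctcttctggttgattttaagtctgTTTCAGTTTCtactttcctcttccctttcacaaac
Stat2: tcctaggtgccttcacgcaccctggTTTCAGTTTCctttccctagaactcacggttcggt
Bst2: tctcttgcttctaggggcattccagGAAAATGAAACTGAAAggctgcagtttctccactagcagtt
Oas1a: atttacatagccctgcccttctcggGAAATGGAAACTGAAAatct
The Isg15 stretch lies on the minus strand at chr4:156200850-156200921 and that of Rsad2 on the minus strand at chr12:26456538-26456597. Gbp2 is on the plus strand at chr3:142620579-142620638, Ifit3 on the plus strand at chr19:34583348-34583441 and Stat2 on the plus strand at chr10:128270251-128270310. Bst2 is on the minus strand at chr8:71537562-71537627 and Oas1a on the minus strand at chr5:120907526-120907570. Isg15 has 3 overlapping matches, the first of them 78 bases before the start site. The AhR's own site was counted as well, with the letters TNGCGTG and after the expression values had been seen. It occurred in 3 of the 30 promoters (10%), those of Ddx58, Psmb9 and Tap1, against 5.84% of all genes, and Psmb9 and Tap1, which are transcribed away from each other, share 1 occurrence at chr17:34187524-34187530.

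No interferon-stimulated gene passed the test between genotypes in limma. Of the 30 tested, 0 were called higher and 0 lower at an adjusted p of 0.05, where 2.18% of all genes were called. At an unadjusted p under 0.05, 0 were higher, against 4.62% of all genes, and 6 were lower (20.0%), against 7.57%: Irf7, Ifih1, Cmpk2, Isg15, Usp18 and Xaf1. With the litter as a block, 1 gene, Cmpk2, was called lower (3.33%, against 2.81% of all genes) and 0 higher (against 1.07%). With the slide as a block 0 were called, either higher (against 1.29%) or lower (against 2.91%). The median log2 fold change of the 30 genes was -0.13, against 0.0013 over all genes, and 21 of 30 (70.0%) lay below 0, against 49.6%. All 3 AhRCA arrays lay below all 3 WT arrays for 7 genes (23.3%, against 8.84% of all genes), and above them for 0 (against 7.52%). In 3 of 3 litters the AhRCA mouse was lower for 8 genes (26.7%, against 20.1%), those 7 and Tap1, and higher for 2, Ddx58 and Parp9 (6.67%, against 19.7%). Within slide 1 alone the median was -0.23, with 0 called, and in the single pair of slide 2 it was 0.03. The RNA came from whole epidermis, so fewer cells of a type and less RNA per cell cannot be told apart.

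**Figure D1:**
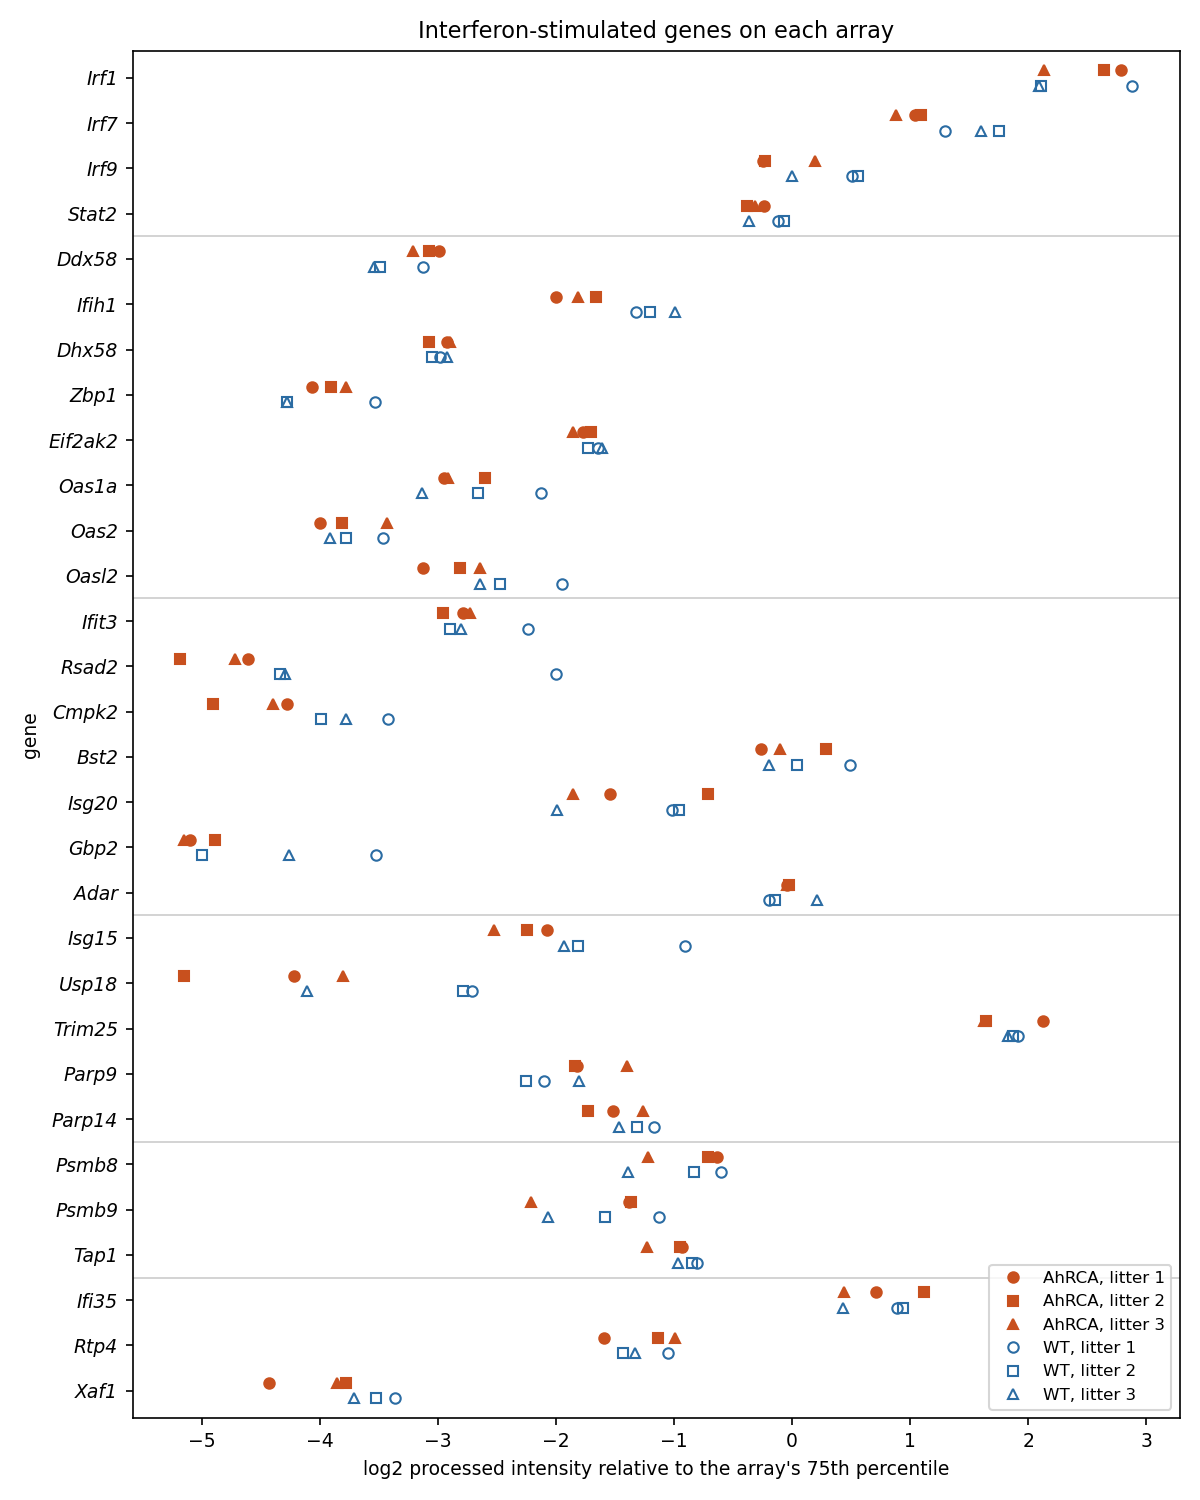
Log2 processed intensity relative to the array's 75th percentile (x axis) of the 30 tested genes (rows, grouped by role with grey lines between groups) on each of the 6 arrays; filled orange symbols are AhRCA mice, open blue symbols WT mice, and the shape gives the litter. The filled symbols of Irf7 and Ifih1 lie wholly left of the open ones, while WT of litter 1 is the rightmost symbol in 16 rows.

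Among the 4 transcription factors, Irf7 stood lower in every AhRCA mouse and the other 3 overlapped between genotypes. IRF7 is the factor that amplifies type I interferon production once a first wave has been sensed. It had 1.04, 1.10 and 0.88 in AhRCA epidermis of litters 1 to 3, against 1.29, 1.75 and 1.60 in WT epidermis. The groups did not overlap, and the log2 fold change was -0.54 ± 0.15 (SE, adjusted p = 0.161, limma), which is 0.687 of the WT level. Irf9, the DNA-binding part of ISGF3, had -0.25, -0.23 and 0.20 in AhRCA epidermis, against 0.51, 0.56 and -0.0031 in WT epidermis. It was lower in AhRCA mice of litters 1 and 2 and higher in litter 3, with a log2 fold change of -0.45 ± 0.20 (adjusted p = 0.471), or -0.77 on slide 1 only. A second bright Irf9 probe differed by -0.19 and did not turn in litter 3, with -3.875 in the AhRCA and -3.805 in the WT mouse. Stat2, its partner in the same complex, had -0.24, -0.38 and -0.31 in AhRCA epidermis, against -0.12, -0.07 and -0.37 in WT epidermis. The groups overlapped (-0.13 ± 0.12, adjusted p = 0.923). Irf1, which also answers interferon gamma, had 2.79, 2.65 and 2.13 in AhRCA epidermis, against 2.88, 2.11 and 2.10 in WT epidermis. Its spread between litters was wider than its genotype difference of 0.16 ± 0.27 (adjusted p = 0.999).

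Of 10 sensors of foreign or altered nucleic acid 8 were tested and 0 called, with a median log2 fold change of -0.07 and a range of -0.65 to 0.29. Ifih1 encodes MDA5, the cytosolic sensor of long double-stranded RNA. It had -2.00, -1.66 and -1.81 in AhRCA epidermis, against -1.32, -1.21 and -0.99 in WT epidermis. Every AhRCA mouse lay below every WT mouse, the log2 fold change was -0.65 ± 0.14, or 0.638 of the WT level, and the 95% interval ran from -0.99 to -0.31. This was the smallest adjusted p among the 30 genes, 0.0840 in limma, and it was 0.0527 with the litter and 0.0558 with the slide as a block. The other settings gave Ifih1 between 0.0768 (quantile normalization) and 0.1735 (slide 1 only). Leaving out 1 array gave between 0.128 (WT of litter 1) and 0.2772 (WT of litter 2). Within slide 1 the difference was -0.57. Ddx58, which encodes RIG-I, the sensor of short RNA with a triphosphate end, had a positive difference of 0.29 ± 0.15 (adjusted p = 0.545) and was higher in AhRCA mice in 3 of 3 litters. Dhx58, encoding LGP2, a regulator of both, differed by 0.02 ± 0.11, and Eif2ak2, the kinase PKR that halts translation on double-stranded RNA, by -0.11 ± 0.10. Zbp1, a sensor of Z-form nucleic acid, differed by 0.11 ± 0.22 and its sign changed between litters.

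The oligoadenylate synthetases make the activator of the nuclease RNase L, and their members were heterogeneous. Oas1a had -2.95, -2.60 and -2.91 in AhRCA epidermis, against -2.12, -2.66 and -3.13 in WT epidermis, and the groups overlapped (-0.18 ± 0.26, adjusted p = 0.989). The AhRCA mice kept within a narrower band than the WT mice, of which that of litter 1 was highest. Oas2 differed by -0.03 ± 0.19. Oasl2, a synthetase-like protein, had -3.12, -2.81 and -2.64 in AhRCA epidermis, against -1.95, -2.47 and -2.64 in WT epidermis. The groups did not overlap, though in litter 3 the difference was -0.0038, and the log2 fold change was -0.51 ± 0.22 (adjusted p = 0.422) and -0.30 without WT of litter 1. Oas3 was not well above background on any array, and Oasl1 reached that level on 0 AhRCA arrays and on 1 WT array, that of litter 1.

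Of 12 listed antiviral effectors 7 were tested and 0 called, with a median log2 fold change of -0.18. Rsad2 encodes viperin, an enzyme that makes a chain-terminating nucleotide from CTP, and its neighbour Cmpk2 encodes a mitochondrial nucleotide kinase. Rsad2 had -4.61, -5.18 and -4.71 in AhRCA epidermis, against -2.00, -4.34 and -4.29 in WT epidermis. WT of litter 1 stood more than 2 log2 units above every other array, and the log2 fold change of -1.29 ± 0.62 (adjusted p = 0.521) was -0.52 without that array. Cmpk2 had -4.28, -4.90 and -4.39 in AhRCA epidermis, against -3.42, -3.99 and -3.78 in WT epidermis. Its difference was alike in all litters, at -0.86, -0.92 and -0.61, with a log2 fold change of -0.80 ± 0.22, an adjusted p of 0.160 and, with the litter as a block, of 0.0303. With normexp background correction, which adds 50 intensity units to every spot, it was -0.26 (adjusted p = 0.410), and that of Rsad2 was -0.54. Both genes were well above background on 2 of 3 AhRCA arrays and on 3 WT arrays, close to the limit of detection.

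The other effectors gave no call. Ifit3, which binds viral RNA with its relatives, differed by -0.18 ± 0.19, and Bst2, the tetherin that holds budding virions at the membrane, by -0.14 ± 0.22. Isg20, an exonuclease, differed by -0.04 ± 0.38, and Adar, the enzyme that edits adenosine in double-stranded RNA, by 0.00 ± 0.14. Gbp2, a guanylate-binding protein induced mainly by interferon gamma, had -5.10, -4.89 and -5.15 in AhRCA epidermis, against -3.52, -5.00 and -4.26 in WT epidermis, and was well above background on 1 of 3 AhRCA arrays. The difference was -0.78 ± 0.35 (adjusted p = 0.461) and -0.42 without WT of litter 1, and in litter 2 the AhRCA mouse was the higher one. Ifit1, which recognises RNA lacking a host cap, had -5.34, -7.04 and -4.77 in AhRCA epidermis, against -4.64, -6.41 and -5.60 in WT epidermis. It was well above background on 1 array of each genotype and was not tested. Ifit2 was well above background on 0 AhRCA arrays and 1 WT array, and Samd9l on none.

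ISG15 is a ubiquitin-like protein that is attached to other proteins after interferon, and USP18 both removes it and blocks the interferon receptor. Isg15 had -2.08, -2.25 and -2.52 in AhRCA epidermis, against -0.91, -1.81 and -1.93 in WT epidermis. The groups did not overlap and the log2 fold change was -0.73 ± 0.29, or 0.602 of the WT level (adjusted p = 0.360), with a 95% interval of -1.42 to -0.05. Without WT of litter 1 it was -0.41. Usp18 had -4.22, -5.15 and -3.81 in AhRCA epidermis, against -2.71, -2.78 and -4.11 in WT epidermis. It was far lower in AhRCA mice of litters 1 and 2, by -1.51 and -2.37, and slightly higher in litter 3, by 0.30, which left a log2 fold change of -1.19 ± 0.48 (adjusted p = 0.385). It was -1.94 on slide 1 only and -0.46 with normexp. Usp18 was well above background on 2 of 3 AhRCA arrays and on 3 WT arrays. The AhRCA value of litter 2, -5.15, lay below the lowest signal well above background on that array, -4.77. The size of the difference in litter 2 is therefore uncertain.

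The remaining enzymes of this group gave no call. Trim25, the ubiquitin ligase that activates RIG-I, had 2.12, 1.64 and 1.62 in AhRCA epidermis, against 1.91, 1.87 and 1.83 in WT epidermis, with overlapping groups (-0.07 ± 0.16, adjusted p = 0.999). Parp9, which works in a complex with the ubiquitin ligase DTX3L, had -1.82, -1.83 and -1.40 in AhRCA epidermis, against -2.10, -2.25 and -1.81 in WT epidermis. It was higher in the AhRCA mouse of 3 of 3 litters, by 0.27, 0.42 and 0.41, with a log2 fold change of 0.37 ± 0.18 (adjusted p = 0.524), or 0.22 without AhRCA of litter 3. Parp14, a mono-ADP-ribosyltransferase also on chromosome 16, differed by -0.18 ± 0.16. Its second bright probe gave 0.10 and that of Adar -0.10, so that the probes of these 2 genes disagreed in the sign of the mean difference. The probes of Irf1, Irf9, Isg20, Psmb8 and Trim25 did not. The second Trim25 probe gave -0.34, however, and in litter 1 it was lower in the AhRCA mouse (-3.119 against -2.233), where the first was higher.

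Psmb8 and Psmb9, catalytic subunits of the immunoproteasome, and Tap1, a chain of the transporter that feeds peptides to MHC class I, had their lowest values in litter 3 in both genotypes. The litter term was not called for any of them, with adjusted p of 0.0994, 0.111 and 0.343. Psmb9 had -1.38, -1.36 and -2.21 in AhRCA epidermis, against -1.13, -1.59 and -2.07 in WT epidermis, so that the mice of litter 3 lay well below the other 4. Psmb8 had -0.63, -0.71 and -1.22 in AhRCA epidermis, against -0.60, -0.83 and -1.39 in WT epidermis, again with both mice of litter 3 lowest. The genotype differences were 0.09 ± 0.25 for Psmb8, -0.06 ± 0.32 for Psmb9 and -0.17 ± 0.12 for Tap1. Of the other genes, Ifi35, a stabilising partner of the protein NMI, had 0.71, 1.12 and 0.44 in AhRCA epidermis, against 0.89, 0.94 and 0.43 in WT epidermis, a difference of 0.00 ± 0.22 (adjusted p = 0.999). Rtp4, a chaperone of receptors, differed by 0.03 ± 0.19. Xaf1, a pro-apoptotic protein, had -4.43, -3.77 and -3.85 in AhRCA epidermis, against -3.36, -3.52 and -3.70 in WT epidermis, without overlap. The difference was -0.49 ± 0.20 (adjusted p = 0.397), -0.29 without AhRCA of litter 1 and -0.17 with normexp background correction. Ifi44 was not well above background on any array.

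**Figure D2:**
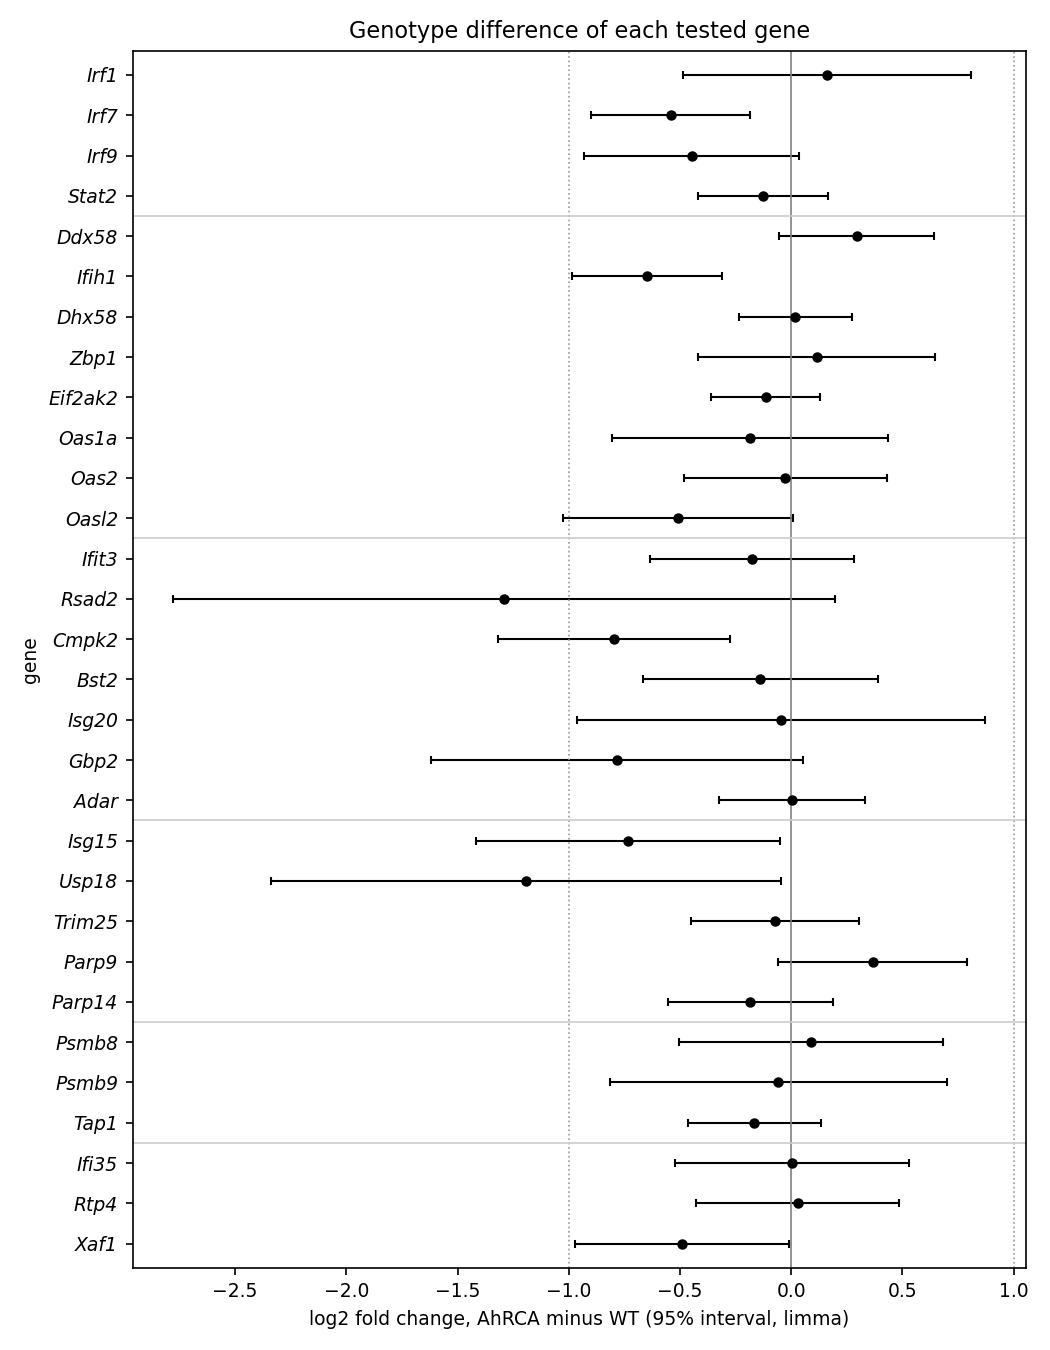
Log2 fold change of AhRCA over WT epidermis (points, x axis) with its 95% interval from limma (bars) for the 30 tested genes, grouped by role; n = 3 mice per genotype, and dotted lines mark 2-fold either way. Ifih1 at -0.65 and Irf7 at -0.54 have intervals wholly below 0, as have Cmpk2, Isg15, Usp18 and Xaf1. The intervals of 24 of the 30 genes lie within 2-fold.

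The intervals show what the 6 arrays could resolve. For 24 of the 30 genes (80.0%, against 85.6% of all genes) the 95% interval of the difference lay within 2-fold in both directions. The other 6 were Oasl2, Rsad2, Cmpk2, Gbp2, Isg15 and Usp18, and each of their intervals passed 2-fold on the lower side.

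The size of the difference varied between the littermate pairs. In litter 1 the AhRCA mouse was lower for 25 of 30 genes, with a median difference of -0.53 log2 units, while 47.8% of all genes were lower there and their median was 0.01. In litter 2 it was lower for 16 of 30 (44.5% of all genes) and the median was -0.03, and in litter 3 for 13 of 30 (56.6% of all genes) with a median of 0.03. Differences beyond 2-fold lower were seen for 6 genes in litter 1, Rsad2, Gbp2, Usp18, Oasl2, Isg15 and Xaf1, for Usp18 in litter 2 and for none in litter 3; over all genes the shares were 3.38%, 3.37% and 3.03%. None was beyond 2-fold higher in any litter. The AhRCA values of Usp18 in litter 2 and of Gbp2 in litter 1 lay below the lowest signal well above background on their arrays.

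**Figure D3:**
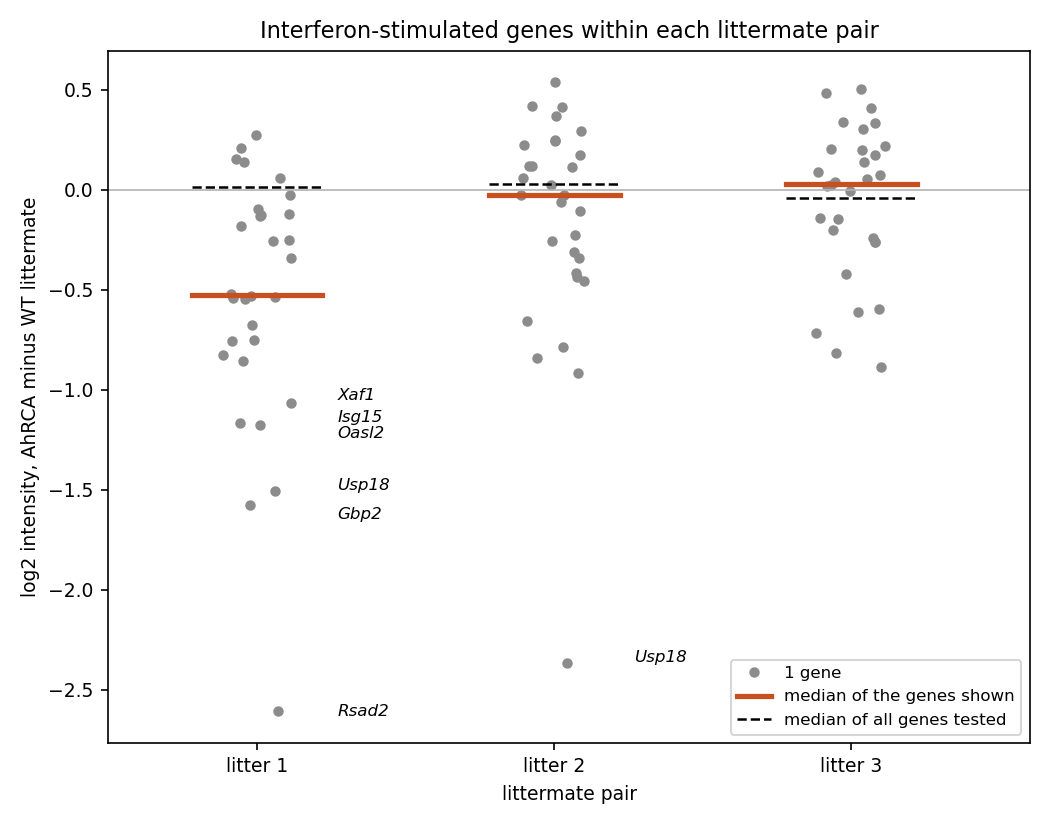
Log2 intensity of the AhRCA mouse minus that of its WT littermate (y axis) for each of the 30 tested genes (grey points, spread sideways for legibility) in litters 1 to 3; orange bars are medians of these genes and dashed lines medians of all genes tested. The medians are -0.53, -0.03 and 0.03 in litters 1, 2 and 3, and the genes beyond 2-fold are named.

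WT of litter 1 stood high for many of these genes. It was the highest of the 6 arrays for 16 of the 30 genes, where it was highest for 17.1% of all genes, and the median of the 30 fold changes was -0.06 without it. Without any other 1 array the median lay between -0.26 (without WT of litter 3) and -0.11. Litter 1 was singled out after these values were seen, and its difference from the other litters was not tested. On the same array S100a8 and S100a9, listed as neutrophil markers, were also highest. S100a8 had -0.92, -1.73 and -1.63 in AhRCA epidermis, against 0.51, -1.39 and -1.34 in WT epidermis. S100a9 had 3.27, 2.57 and 1.97 in AhRCA epidermis, against 4.49, 2.42 and 1.89 in WT epidermis. These 2 were the tested ones of 7 neutrophil markers. Ly6g had no probe, Retnlg, Mmp8 and Csf3r were not well above background on any array, and Cxcr2 was so on 1. The part of these transcripts in the litter 1 difference was not tested.

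Whether the genotype effect differed between slides was tested as an interaction. It was called for 0 of the 30 genes and for 1 gene in all (0.0078%), on 2 residual degrees of freedom. At an unadjusted p under 0.05 there were 5, Irf9, Oas2, Adar, Usp18 and Parp14 (16.7%, against 9.98% of all genes). The adjusted p from limma was 0.442 for Irf9 and 0.491 for Usp18. Of these 5, Irf9, Usp18, Oas2 and Parp14 were lower in the AhRCA mice of litters 1 and 2 and higher in that of litter 3. This holds for the probe that stood for each gene, and the second bright probe of Irf9 was lower in the AhRCA mouse of litter 3 too. That of Parp14 was slightly higher in the AhRCA mouse of litter 1, at -4.253 against -4.334 in WT. A test of the litter term called 0 of the 30 genes, where 1.36% of all genes were called. At an unadjusted p under 0.05 it gave 8 (26.7%, against 24.6% of all genes), a share near the background: Irf1, Cmpk2, Isg20, Isg15, Parp9, Psmb8, Psmb9 and Ifi35.

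The surrounding pathway was read from 7 lists of 155 further genes. Of these, 106 were tested and 1 was called (0.943%, against 2.18% of all genes), the negative regulator Tiparp. TIPARP is a mono-ADP-ribosyltransferase induced by AhR that in mouse cells modifies the kinase TBK1 and dampens interferon production. Tiparp had 4.15, 4.18 and 4.09 in AhRCA epidermis, against 2.69, 2.60 and 2.78 in WT epidermis. The groups were far apart and the log2 fold change was 1.45 ± 0.10, or 2.73-fold (adjusted p = 0.00236, limma). Its call held under every alternative tried, with adjusted p between 0.0118 and 0.0252 when 1 array was left out. Of the 14 negative regulators tested no other was called, and Socs1, the feedback inhibitor of JAK kinases, differed by 0.02 ± 0.14.

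The other steps from ligand to transcription factor gave no call in this fit. Of 20 listed interferons 12 had a probe and 3 were tested, Ifna9, Ifna13 and Ifnz, whose differences were 0.00 ± 0.10, -0.26 ± 0.44 and -0.50 ± 0.48. Ifnb1 was not well above background on any array, and Ifnk, the keratinocyte interferon, was so on 1 WT array, that of litter 1. All 6 receptor chains were tested, with a median log2 fold change of 0.00. Ifnar1 differed by 0.06 ± 0.10, Ifnar2 by 0.14 ± 0.16 and Ifngr1, a chain of the interferon gamma receptor, by 0.26 ± 0.14. The kinase Jak1 differed by 0.33 ± 0.12 (adjusted p = 0.324) and Irf8, a factor of myeloid and dendritic cells, by 0.68 ± 0.22 (adjusted p = 0.241). Among adaptors and kinases of nucleic acid sensing, Tbk1 differed by 0.18 ± 0.12, Ikbke by 0.31 ± 0.20 and Cgas, the cytosolic DNA sensor, by -0.41 ± 0.13 (adjusted p = 0.225).

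**Figure D4:**
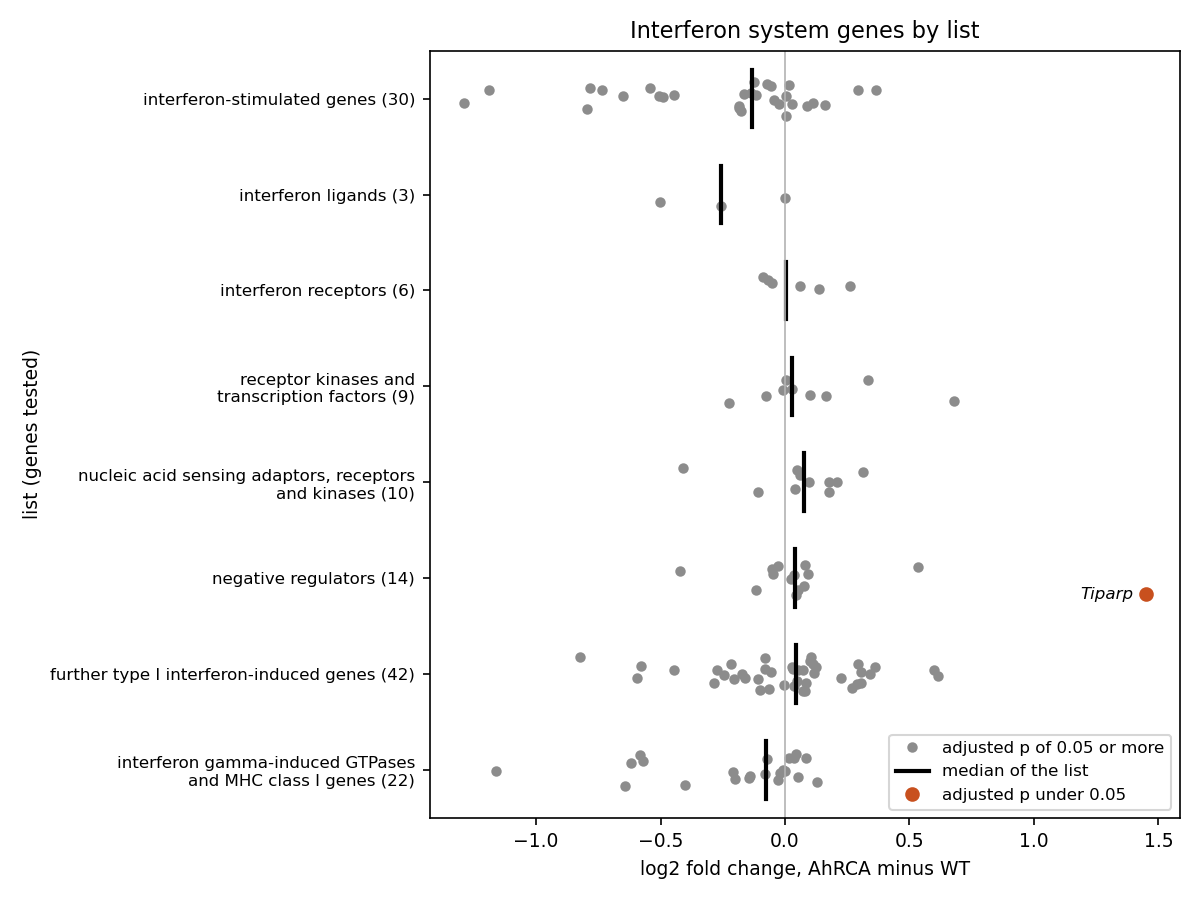
Log2 fold change of AhRCA over WT epidermis (x axis) for each tested gene (points) of the interferon-stimulated genes and of 7 pathway lists (rows, number tested in brackets; points spread vertically for legibility), with black bars for list medians and orange for adjusted p under 0.05. Tiparp at 1.45 is the 1 gene called, and the median of the interferon-stimulated genes is -0.13.

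A further 62 interferon-induced genes, 42 of them tested, had a median log2 fold change of 0.04, and 18 of the 42 lay below 0. They gave 0 calls, and at an unadjusted p under 0.05 there were 3 higher (against 4.62% of all genes) and 3 lower (against 7.57%). Oas1e, a synthetase relative, differed by 0.61 ± 0.12 (adjusted p = 0.0653, and 0.0395 with the litter as a block). Plscr1, a phospholipid scramblase, differed by -0.83 ± 0.41 (adjusted p = 0.537), and by -0.34 without WT of litter 3. Ly6e, a surface protein that restricts coronavirus entry, differed by -0.60 ± 0.14 (adjusted p = 0.103, and 0.0412 with the litter as a block). Of 29 genes of the interferon gamma programme 22 were tested, with a median of -0.08 and 0 calls. At an unadjusted p under 0.05, 0 of the 22 were higher (against 4.62% of all genes) and 4 lower (against 7.57%). Ciita, the master activator of MHC class II genes, was well above background on 0 of the AhRCA arrays and on all 3 WT arrays. It had -4.96, -4.72 and -5.37 in AhRCA epidermis, against -3.53, -3.67 and -4.37 in WT epidermis, at least 2.14-fold lower in AhRCA (adjusted p = 0.101, and 0.0206 with the litter as a block). It entered the test through the WT arrays alone, and with normexp background correction its log2 fold change was -0.32 (adjusted p = 0.401). Nlrc5, the corresponding activator of MHC class I genes, differed by -0.64 ± 0.33 (adjusted p = 0.564, and 0.0378 with the litter as a block), and by -0.38 without WT of litter 3. Over the 106 tested genes of the 7 lists, 8.49% had all AhRCA arrays below all WT arrays, close to the 8.84% of all genes.

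Some markers of the cells that share the epidermis with keratinocytes differed as well. Summed over 6 tested Langerhans and dendritic cell markers, the level was 6.60 to 9.62 times the array's 75th percentile in AhRCA epidermis and 10.6 to 15.9 times in WT epidermis. Cd207, the marker that defines Langerhans cells, cleared the background on 0 of 3 AhRCA arrays and entered the test through the WT arrays alone. Its difference is therefore a bound, at least 3.09-fold lower in AhRCA epidermis (adjusted p = 0.0206, limma). The sum of 6 T cell markers was 1.60 to 1.82 in AhRCA epidermis and 1.84 to 3.33 in WT epidermis, with WT of litter 1 highest, and 0 were called. The sum of 7 macrophage markers was 5.05 to 5.84 in AhRCA epidermis and 3.95 to 4.41 in WT epidermis, and Adgre1 and C1qa were called higher. Both lost their call when any 1 array was left out (adjusted p between 0.0674 and 0.169), and Cd207 did without AhRCA or WT of litter 1 or 2 (0.0534 to 0.0879). The sum of 5 tested fibroblast markers was 19.2 to 19.4 in AhRCA epidermis and 18.2 to 25.5 in WT epidermis, and 0 were called. Of 8 plasmacytoid dendritic cell markers 5 were tested and 0 called, with sums of 189.9 to 257.2 in AhRCA epidermis and 211.3 to 235.9 in WT epidermis. Siglech, the defining marker of these cells, was well above background on 0 of the 6 arrays, and Spib and Klk1 were not tested. A sum on the linear scale follows its brightest probes, so this one is no measure of plasmacytoid dendritic cells. The same limit applies to the other sums, whose markers did not all move alike. Log2 fold changes ran from -1.36 to 0.40 for the T cell, -0.43 to 0.86 for the macrophage and -1.19 to 0.85 for the fibroblast markers. For the Langerhans and dendritic cell markers they ran from -2.59 to 0.01. The part of these cells in the interferon-stimulated transcripts was not tested.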

How the data were processed

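Scanner files gave the authors' spot intensity per probe. Per the file headers, Agilent Feature Extraction 10.7.3.1 subtracted the background and did not scale between arrays. The authors' deposited value table holds log2 values centred per probe. Its array-to-array differences matched those of the scanner intensities with a slope of 1.0, which fixes scale and direction, and it served as an alternative. Its column medians were 0.0282, 0.0633 and -0.0704 for AhRCA 1 to 3 and -0.0703, -0.0494 and 0.0825 for WT 1 to 3.

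Processed signals of non-control spots were divided by their 75th percentile on the array and taken to log2. Control spots (1639 of 45018) and 56 to 94 outlier spots per array were left out, 0 spots were saturated, and 56.2% to 61.3% of spots were well above background. RefSeq accessions gave 1 symbol for 26690 of 41174 probes, several for 0 and none for 14484 (RefSeq table, GRCm38.p6). A probe was kept when 3 or more of the 6 arrays read it well above background, and the probe of highest mean stood for its gene. The genotypes were compared over all 12824 genes with limma 3.58.1 (R 4.3.3, lmFit and eBayes, two-sided, Benjamini-Hochberg over all genes, threshold 0.05, no covariate), checked on simulated data.

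Replicate numbers pair littermates. Deviations from the group means correlated at 0.34, 0.37 and 0.55 for same-numbered mice and between -0.42 and 0.19 for the others. Separate animals are the replicates. Alternatives were normexp (offset 50, on the median signal, since the files hold no mean signal), quantile and median scaling, the deposited table, other filters on dim probes, the mean of a gene's probes, litter and slide as blocks, slide 1 alone and each array left out. The members, the lists and the motifs were chosen with earlier results of these data known. Values per array are given for the 6 genes of largest fold change among those well above background on all arrays and for the 4 of highest mean signal. They are also given for 8 genes fixed by name, except Mx1, which had no probe. Rsad2, Cmpk2, Gbp2, Parp9, Psmb8 and Psmb9 were added after their values were seen. From each pathway list the called genes, or otherwise the 2 of largest fold change, are named, with others fixed by name, 1 of which is not reported here.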

Additional observations from a re-analysis of the deposited data

How the results depend on the processing

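Of the 30 interferon-stimulated genes, 0 were called under 15 of the 16 alternatives to the processing described, and 1, Cmpk2 (adjusted p = 0.0303), once litter pairs entered as a block. The pairing changed no other call among them. Over all genes the 279 calls became 132 with no filter on dim probes, 497 with the litter pair as a replicate block, 539 with the slide as a block and 130 on slide 1 only, and between 62 (without WT replicate 2) and 195 (without WT replicate 1) with 1 array left out. Without AhRCA replicate 1, 2 or 3 there were 104, 71 and 151, and without WT replicate 3 there were 185. In the pathway lists the 1 call became 5 with the litter pair as a block, 4 with the slide as a block and 2 on slide 1 only, and 1 or 2 with 1 array left out. With the litter and the slide as a block these were Oas1e (adjusted p = 0.0395 and 0.0322), Ly6e (0.0412 and 0.0421), Ciita (0.0206 and 0.0109) and, with the litter alone, Nlrc5 (0.0378); Ciita also passed on slide 1 only (0.0497) and without WT replicate 3 (0.0497). The slide interaction went to 0 genes under normexp, against 1, and the litter term to 269 under normexp, 10 under quantile normalization and 55 under median scaling, against 175. The cause of these changes was not tested. No scaling moved the median of all genes by more than 0.033.

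The sign turned in 10 of 296 values under settings other than leaving out an array, none of them called: Dhx58 (-0.0065, normexp), Zbp1 (-0.080, slide 1 only), Oas2 (0.0087 normexp, 0.037 quantile, 0.0071 median scaling), Adar (-0.0012 quantile, -0.051 mean of probes), Ifi35 (-0.016 quantile, -0.0029 slide 1 only) and Rtp4 (-0.12, slide 1 only). Leaving out 1 array turned it in 29 of 180 values, in 13 genes whose differences lay near 0. Their lowest and highest values were -0.075 and 0.13 for Adar, -0.30 and 0.050 for Bst2, -0.016 and 0.072 for Dhx58, -0.18 and 0.16 for Ifi35, -0.30 and 0.027 for Ifit3, -0.38 and 0.20 for Isg20, -0.43 and 0.074 for Oas1a, -0.18 and 0.10 for Oas2, -0.13 and 0.27 for Psmb8, -0.30 and 0.22 for Psmb9, -0.097 and 0.21 for Rtp4, -0.24 and 0.014 for Trim25 and -0.010 and 0.36 for Zbp1. For Socs1 they were -0.037 and 0.131. Rsad2, Cmpk2, Usp18 and Gbp2 lay near the background on some AhRCA arrays, and normexp, whose added offset shrinks the differences of dim probes by construction, gave them log2 fold changes of -0.54, -0.26, -0.46 and -0.23, against -1.29, -0.80, -1.19 and -0.78. It likewise gave Xaf1 -0.17 (against -0.49), Oasl2 -0.33 (-0.51), Ddx58 0.18 (0.29), Ciita -0.32 (-1.16), Nlrc5 -0.19 (-0.64) and Oas1e 0.31 (0.61), and the median of the 30 genes was -0.067 (-0.13).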
